A study of Rattus norvegicus with 16 samples.

Results

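The let-7 family of microRNAs was followed in left ventricles of male rats of the Sprague Dawley strain after 5/6 nephrectomy (5/6Nx), the surgical removal of most of the renal mass, used as a model of chronic kidney disease and of the heart disease that comes with it. The members were every rat entry of the deposited small RNA count tables whose name begins with rno-let-7 and marks the 5p arm, together with rno-miR-98-5p: 8 of the 317 rat miRNAs listed in all 4 tables. They were let-7a-5p, let-7b-5p, let-7c-5p, let-7d-5p, let-7e-5p, let-7f-5p, let-7i-5p and miR-98-5p, and all 8 passed the filter on low counts that left 306 miRNAs to test. The 5/6Nx groups had undergone the excision form of the operation at 10 weeks of age and were studied at weeks 2, 4, 5 and 7 after it, and the sham groups had sham surgery at the same age and were collected at the same times. All rats were kept on 0.4% Dyets chow. Each of the 8 groups had 2 libraries, called pools A and B, and each library was made from the pooled left ventricle RNA of 2 to 3 rats, so the spread between libraries is a spread between pools and not between single animals. Because each library comes from whole ventricle, fewer cells of a type and less RNA per cell cannot be told apart in any value below.

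The let-7 miRNAs are short RNAs of about the same sequence that are cut from the 5′ arm of several hairpin precursors, encoded at several loci. Loaded into an Argonaute protein, a let-7 RNA pairs with target messages mainly through its seed, bases 2 to 8 from the 5′ end, and lowers their stability and translation. In mammals the RNA-binding protein LIN28 holds back the processing of most let-7 precursors in embryonic cells, mature let-7 accumulates as tissues differentiate, and well-studied targets include HMGA2, IGF2BP1 and RAS family messages.

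The mature sequences are shown because the members differ at so few bases that the counting of each depends on 1 or a few positions. They are given 5′ to 3′ from RefSeq on the GRCr8 assembly, in lower case with the seed in capitals:
let-7a-5p: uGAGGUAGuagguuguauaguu
let-7b-5p: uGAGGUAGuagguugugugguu
let-7c-5p: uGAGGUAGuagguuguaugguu
let-7d-5p: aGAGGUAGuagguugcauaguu
let-7e-5p: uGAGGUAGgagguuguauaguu
let-7f-5p: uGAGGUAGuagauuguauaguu
let-7i-5p: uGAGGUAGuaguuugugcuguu
miR-98-5p: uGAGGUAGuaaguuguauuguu

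All 8 share the seed GAGGUAG and a length of 22 bases. Relative to let-7a-5p, with positions counted from 1 at the 5′ end, let-7c-5p differs by A19G, let-7e-5p by U9G and let-7f-5p by G12A. Another 3 members carry 2 differences each: A17G and A19G in let-7b-5p, U1A and U16C in let-7d-5p, and G11A and A19U in miR-98-5p. The most distant is let-7i-5p, with G12U, A17G, U18C and A19U. Among these members let-7d-5p alone does not begin with U.

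On GRCr8 the members lie in small clusters of hairpins. On chromosome 17 a copy of let-7a (chr17:16320145-16320166), a copy of let-7f (chr17:16320508-16320529) and the single let-7d gene listed (chr17:16322273-16322294) follow one another on the plus strand, with 363 and 1765 bases between their starts. The second let-7f copy (chrX:24460052-24460073) and miR-98 (chrX:24460663-24460684) lie 611 bases apart on the plus strand, and let-7c-2 (chr7:118683636-118683657) and let-7b (chr7:118684044-118684065) lie 408 bases apart, also on the plus strand. The remaining copies stand beside miRNAs of the miR-99 and miR-100 group or alone: let-7e (chr1:67350243-67350264, plus) is 173 bases from miR-99b, let-7c-1 (chr11:29688127-29688148, plus) 686 bases from miR-99a, and the second let-7a copy (chr8:50805219-50805240, plus) 6912 bases from miR-100. The let-7i gene (chr7:60527935-60527956) is on the minus strand. Reads of let-7a-5p, let-7c-5p and let-7f-5p can come from either of their 2 loci, and the counts do not say from which.

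Depth was enough to count every member in every library. The libraries held 672077 to 3509916 counts on rat miRNAs, and the 8 members took 2.46% to 6.03% of them. The lowest single count of a member was 235, for miR-98-5p in sham pool B at week 7. The heart muscle miRNAs miR-1, miR-133a, miR-133b, miR-208a, miR-208b and miR-499 were summed in each library. Their sum lay between 38062 and 70643 counts per 1000000 counts on rat miRNAs (CPM). The liver miRNA miR-122-5p and the neural miRNA miR-124-3p were not among the miRNAs listed in all 4 tables and tested. Another neural miRNA, miR-9a-5p, was tested and lay between 90.3 and 298 CPM. The 3 kidney and gut epithelium miRNAs summed to between 1409.8 and 2738 CPM. The 2 sham pools of week 5 stood apart from each other more than any other pair of the same group. Their counts differed with a chi-square of 1463 per degree of freedom, against 19.1 to 115 in the other 7 groups. Values that rest on these pools are therefore also given without one of them where that changes a call.

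Levels are given as CPM, with library sizes scaled by the trimmed mean of M values (TMM). All members are 22 bases long, so length does not enter their comparison. Capture of each sequence by the library kit is not known, and near-identical members may share reads. The order below is therefore an order of counts. The most abundant was let-7f-5p, with a mean of 16909.9 CPM over the 16 libraries, which placed it 15th among the 306 miRNAs tested. Next came let-7i-5p at 9803 CPM, let-7a-5p at 6709.6 CPM and let-7c-5p at 5053 CPM. A step down stood let-7b-5p at 1709.8 CPM, let-7d-5p at 1089.7 CPM, let-7e-5p at 659 CPM and miR-98-5p at 382 CPM, the last in 83rd place.

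**Figure D1:**
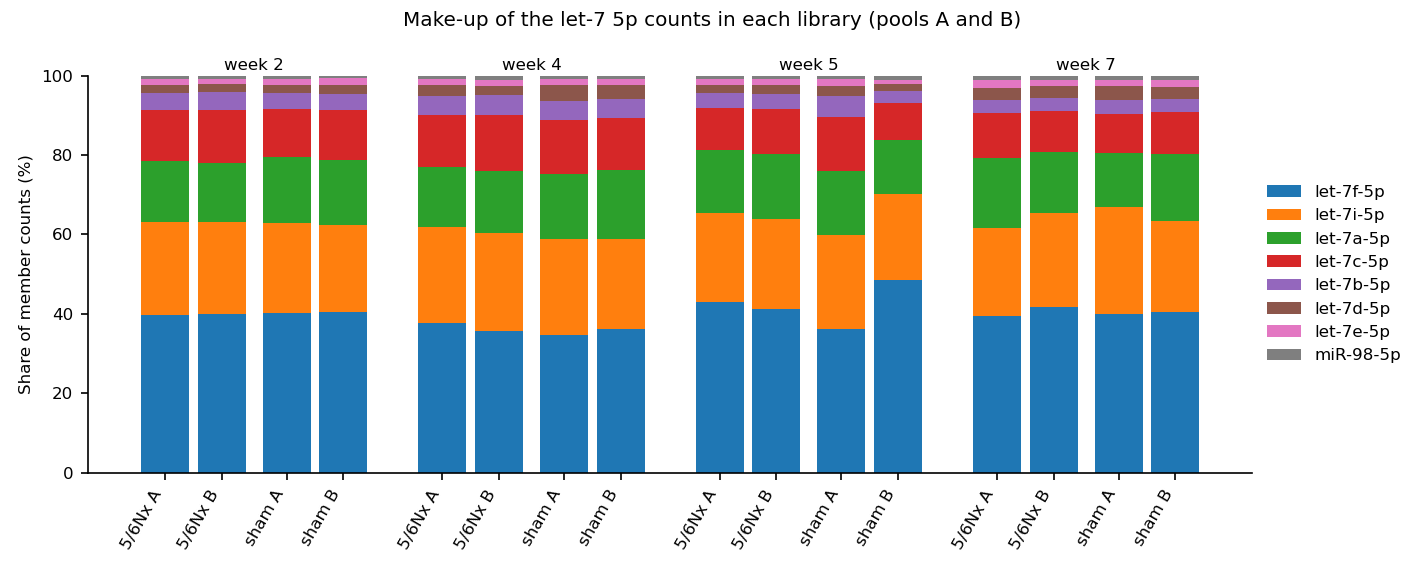
Share of the summed counts of the 8 members (percent, y axis) that each member took in each of the 16 libraries (x axis, pools A and B of each group, 5/6Nx left of sham within a week). let-7f-5p took 34.6% to 48.6% and let-7d-5p 1.77% to 3.91% of the members' counts.

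That order was nearly the same in all libraries. Each member was higher than the next in 16 of 16 libraries, except that let-7b-5p was above let-7d-5p in 15 of 16, with a ratio between 0.933 and 2.30. Among the other neighbours the lowest ratios were those of let-7a-5p over let-7c-5p, at 1.11 to 1.59, and of let-7e-5p over miR-98-5p, at 1.17 to 2.34. As the plot of the make-up of the counts shows, let-7f-5p and let-7i-5p together held more than the other 6 members in every library. The ratio of let-7f-5p to let-7a-5p counts lay between 2.08 and 3.54, and its highest value was in sham pool B of week 5.

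The 5/6Nx pools were compared with the sham pools of the same week in 1 edgeR quasi-likelihood fit over all 16 libraries, with Benjamini-Hochberg adjustment over the 306 miRNAs and a threshold of 0.05. One member passed in 1 week: let-7d-5p was lower after 5/6Nx at week 4. It and miR-3596b, an entry on the opposite strand described further on, were the 2 miRNAs that passed at week 4, which is 0.654% of those tested. No member passed at week 2, where 0.654% of all miRNAs passed, at week 5, where the share was 0%, or at week 7, where it was 4.25%. At an unadjusted p under 0.05 the numbers of members were 1, 1, 1 and 0 of 8 at weeks 2, 4, 5 and 7, against 64, 22, 27 and 61 of all 306 miRNAs. In the limma-voom fit no member passed at weeks 2, 5 and 7 either, whereas DESeq2 called let-7d-5p at week 2 and none at weeks 5 and 7. The number of all miRNAs called also moved with the setting, as given further on.

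**Figure D2:**
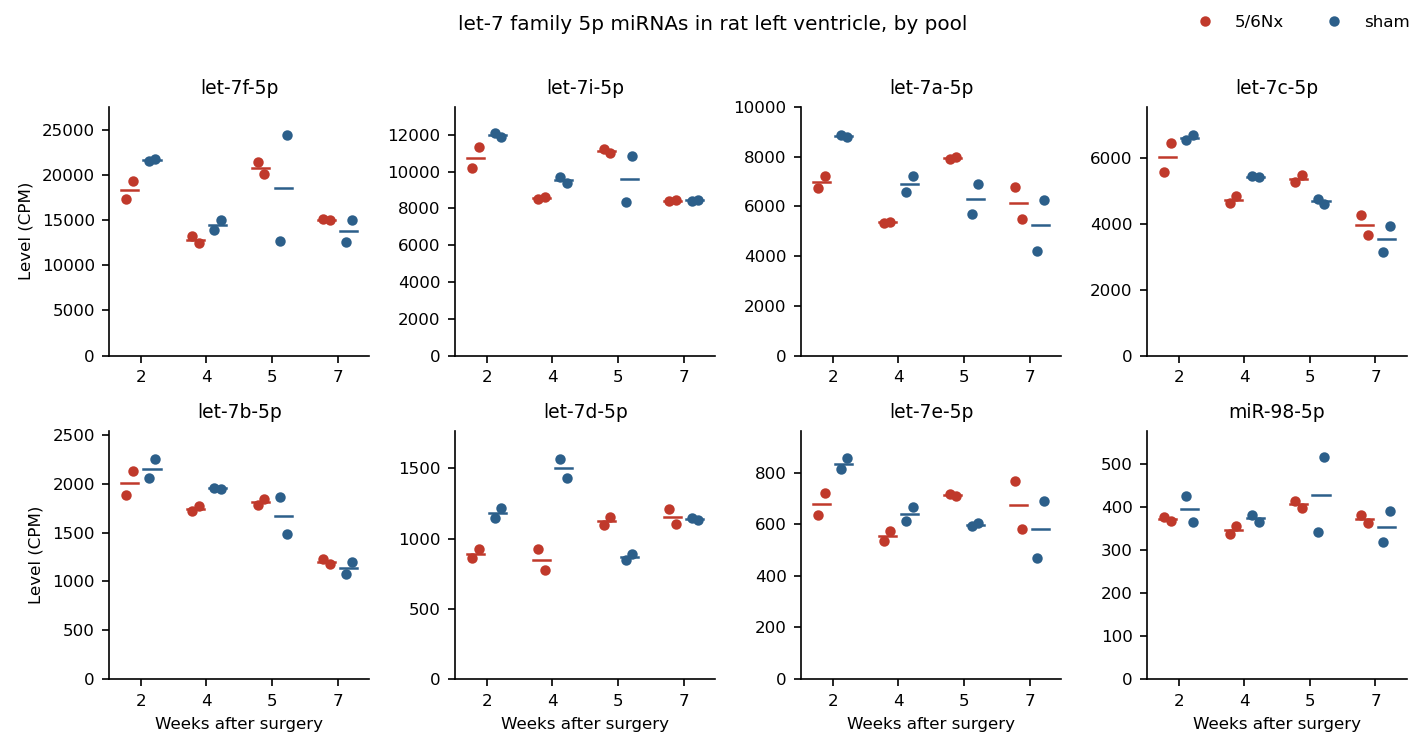
Level of each member (CPM, y axis of each panel) in the 2 pools of each group (points) with the group mean (line), by weeks after surgery (x axis), 5/6Nx left of sham. let-7d-5p was at 925 and 775 CPM in the 5/6Nx pools of week 4 and at 1569 and 1433 CPM in the sham pools.

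In the week 4 libraries let-7d-5p was at 925 and 775 CPM in the 5/6Nx pools, against 1569 and 1433 CPM in the sham pools. Both 5/6Nx pools lay well below both sham pools. The means were 850.2 ± 106 CPM after 5/6Nx and 1501 ± 96.3 CPM after sham surgery (SD, n = 2 each), a 1.76-fold lower level, with a log2 change of -0.82 ± 0.13 (SE; edgeR quasi-likelihood test, adjusted p = 0.00323). The authors' deposited table gives let-7d-5p an adjusted p of 0.0262 in their own test at week 4 and of 1 in the other 3 weeks. The call held in all 14 other settings of scaling, filter, tool and library set that were tried, with adjusted p between 3.84e-06 and 0.0333, but it rested on single pools: without 5/6Nx pool B of week 4 the change was -0.65 (adjusted p = 0.342), and without sham pool A of week 4 it was -0.74 (adjusted p = 0.115).

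The difference was also visible within the family, where no scaling between libraries enters. At week 4 let-7d-5p made up 2.62% and 2.23% of the members' counts in the 5/6Nx pools, against 3.91% and 3.45% in the sham pools. At week 2 the shares were 1.97% and 1.92% after 5/6Nx, against 2.14% and 2.26% after sham surgery. The 5/6Nx shares were thus the lower in both weeks, with no overlap. At week 5 they were 2.21% and 2.36% after 5/6Nx, against 2.41% and 1.77% after sham surgery, and at week 7 they were 3.17% and 3.09% after 5/6Nx, against 3.67% and 3.06% after sham surgery. The groups overlapped in these 2 weeks.

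In the other weeks let-7d-5p differed less. At week 2 it was at 859 and 929 CPM in the 5/6Nx pools, against 1147 and 1216 CPM in the sham pools. The 5/6Nx pools were again both below the sham pools, with a log2 change of -0.40 ± 0.13 (adjusted p = 0.102). This value passed the threshold in DESeq2 (adjusted p = 0.0312) and in edgeR without the 4 libraries of week 5 (0.0337). It also passed without sham pool A of week 5, at -0.43, or without sham pool B of week 5, at -0.48. The number of all miRNAs called at week 2 moved as well, from 2 as reported to between 0 and 48 in the other settings. The share called in each of these fits is not given here. At week 5 the order was the other way, with 1100.2 and 1151 CPM in the 5/6Nx pools, against 845 and 889.7 CPM in the sham pools, and a log2 change of 0.38 ± 0.13 (adjusted p = 0.255). At week 7 the 5/6Nx pools had 1208 and 1105 CPM and the sham pools 1149 and 1136 CPM, so the groups overlapped (0.02 ± 0.13, adjusted p = 0.963).

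The 5/6Nx effect on let-7d-5p therefore differed between weeks by the test of that difference itself, with 3 degrees of freedom (F = 15.3, adjusted p = 0.00764). Of the 8 members let-7d-5p alone passed this test, which 1.63% of all miRNAs passed, and the next lowest adjusted p was 0.180, for let-7a-5p. Without 5/6Nx pool B of week 4, sham pool A of week 4, 5/6Nx pool A of week 5 or 5/6Nx pool A of week 7, no member passed, and without sham pool B of week 5 let-7a-5p, let-7d-5p and let-7f-5p passed. Averaged over the 4 weeks the change of let-7d-5p was -0.21 ± 0.07 (adjusted p = 0.0683), and 0 of the 8 members passed, against 5.56% of all miRNAs (unadjusted p of let-7d-5p 0.00714). DESeq2, and edgeR without either sham pool of week 5, called let-7d-5p in this average, and limma-voom called 0 members. Other settings called 12 to 29 of all miRNAs in this average, against 17 as reported.

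**Figure D3:**
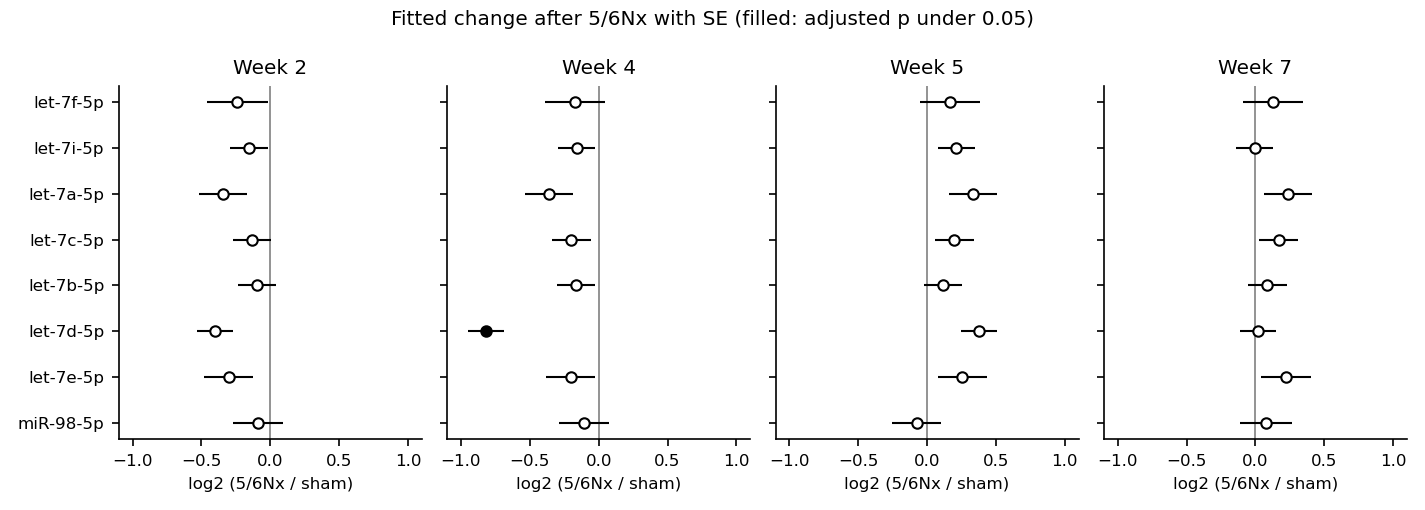
Fitted log2 change of each member, 5/6Nx over sham (x axis), with its SE, in the 4 weeks (panels, weeks in order); filled points have an adjusted p under 0.05. The filled point is let-7d-5p at week 4, at -0.82, and 8 of 8 members lie left of 0 at weeks 2 and 4.

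Sham levels of let-7d-5p moved between weeks by nearly as much as the week 4 groups differed. Group means were 894, 850.2, 1126 and 1156 CPM after 5/6Nx at weeks 2, 4, 5 and 7, and 1182, 1501, 867 and 1142 CPM after sham surgery. The highest of all groups was thus sham at week 4 and the lowest was 5/6Nx at week 4. Differences between weeks passed the threshold among the 5/6Nx groups for 4 members, let-7b-5p, let-7c-5p, let-7d-5p and let-7i-5p, against 38.6% of all miRNAs. Among the sham groups they passed for 5 members, the same 4 and let-7a-5p, against 31.4% of all miRNAs. Each week is a table of its own, so the week and the preparation or sequencing of its libraries cannot be told apart. Without 1 library or under other settings, 1 to 6 members passed among the 5/6Nx groups and 3 to 7 among the sham groups.

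Over the weeks let-7b-5p, let-7c-5p and let-7i-5p had their lowest group means at week 7, both after 5/6Nx and after sham surgery. The let-7b gene and a let-7c copy are neighbours on chromosome 7, but let-7c-5p can also come from its other locus. let-7b-5p averaged 2009, 1742, 1812 and 1203 CPM after 5/6Nx at weeks 2, 4, 5 and 7, and 2154, 1952, 1672 and 1134 CPM after sham surgery (adjusted p between weeks 0.00603 after 5/6Nx and 0.00129 after sham surgery). For let-7c-5p the means were 6036, 4741, 5376 and 3979 CPM after 5/6Nx, and 6622, 5441, 4689 and 3542 CPM after sham surgery (adjusted p 0.0185 after 5/6Nx and 0.00198 after sham surgery). Both miRNAs passed the threshold in both groups. At week 7 let-7i-5p averaged 8421 CPM after 5/6Nx and 8449 CPM after sham surgery. It also passed (adjusted p between weeks 0.041 after 5/6Nx and 0.0476 after sham surgery). It did not pass without a filter among the 5/6Nx groups or with upper-quartile scaling among the sham groups. After sham surgery let-7a-5p, let-7e-5p, let-7f-5p and miR-98-5p were also lowest at week 7, but after 5/6Nx they were lowest at week 4. Among the 5/6Nx groups let-7c-5p did not pass without a filter, with all listed entries or without the opposite-strand entries described further on. let-7b-5p passed in these settings. In several fits without 1 library let-7c-5p did not pass either, such as without either 5/6Nx pool of week 2 or of week 7. Without 5/6Nx pool B of week 7 let-7b-5p did not pass. By contrast miR-98-5p stayed between 320 and 516 CPM in all 16 libraries, with adjusted p between weeks of 0.752 after 5/6Nx and 0.595 after sham surgery.

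let-7a-5p and let-7f-5p, which can come from the chromosome 17 cluster or from a second locus, were also lower in both 5/6Nx pools at weeks 2 and 4. So were let-7c-5p, let-7e-5p and let-7i-5p, which are not encoded in that cluster. None of these passed the threshold in either week. At week 4 let-7a-5p was at 5329.9 and 5386 CPM in the 5/6Nx pools, against 6567 and 7214 CPM in the sham pools (-0.36 ± 0.17, adjusted p = 0.601). At week 2 it was at 6736 and 7217 CPM after 5/6Nx, against 8862 and 8815 CPM after sham surgery (-0.34 ± 0.17, adjusted p = 0.261). Neither pair of groups overlapped. At week 5 the order was the other way, with 7900.2 and 7974 CPM after 5/6Nx and 5694 and 6889.7 CPM after sham surgery (0.34 ± 0.17, adjusted p = 0.513).

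For let-7f-5p, the most abundant member, the sham pools of week 5 were the widest apart of any group. It had 21388 and 20103 CPM in the 5/6Nx pools of week 5, against 12659.6 and 24394 CPM in the sham pools, so both 5/6Nx pools fell between the sham pools (0.16 ± 0.22, adjusted p = 0.816). Which sham pool was kept decided the value: it was 0.60 (adjusted p = 0.0038) without sham pool B and -0.36 (adjusted p = 0.173) without sham pool A. At week 4 let-7f-5p was at 13257 and 12392 CPM after 5/6Nx, against 13874 and 15028 CPM after sham surgery (-0.17 ± 0.22, adjusted p = 0.893). At week 2 it was at 17322 and 19332 CPM after 5/6Nx, against 21558 and 21689.8 CPM after sham surgery (-0.24 ± 0.22, adjusted p = 0.538). Neither of these pairs overlapped. Without sham pool B of week 5, let-7a-5p (adjusted p = 0.0486) and let-7f-5p (adjusted p = 0.0481) also passed at week 2.

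let-7i-5p, which is not encoded in any of the clusters above, did not pass the threshold for 5/6Nx against sham in any week or setting. At week 4 it was at 8509 and 8591 CPM after 5/6Nx, against 9732 and 9392 CPM after sham surgery (-0.16 ± 0.14, adjusted p = 0.862). At week 5 it was at 11206 and 10999.6 CPM after 5/6Nx, against 8337 and 10835 CPM after sham surgery (0.21 ± 0.14, adjusted p = 0.585). The 5/6Nx pools were below the sham pools at week 4 and above them at week 5, but without sham pool A of week 5 the week 5 change was -0.096. At week 7 its 4 values, 8399 and 8443 CPM after 5/6Nx and 8424 and 8473 CPM after sham surgery, lay closer together than in the other weeks.

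The remaining members had smaller or more scattered differences. let-7e-5p, from the cluster with miR-99b and miR-125a, was at 634 and 719 CPM after 5/6Nx at week 2, against 813 and 856 CPM after sham surgery (-0.30 ± 0.18, adjusted p = 0.356). At week 7 it ranged from 580.4 to 768 CPM after 5/6Nx and from 470.4 to 692 CPM after sham surgery, which overlapped. let-7b-5p and let-7c-5p had fitted changes between -0.20 and 0.20 in all 4 weeks. miR-98-5p was at 416 and 398 CPM after 5/6Nx at week 5, with sham pools of 342 and 516 CPM on either side (-0.08 ± 0.18, adjusted p = 0.876).

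Counted as a group, 8 of 8 members had a fitted change below 0 at week 2, where 48.7% of all miRNAs did, and 6 of 8 had both 5/6Nx pools below both sham pools, against 30.1% of all miRNAs. At week 4, 8 of 8 were below 0, against 61.1% of all miRNAs, and 8 of 8 had both 5/6Nx pools the lower, against 28.4%. The fitted change of miR-98-5p at week 4 was slightly above 0 under 2 other settings and in 2 of the fits without 1 library. Sizes at week 4 depended on the scaling: the median of all miRNAs was -0.078 as reported and 0.0022 in DESeq2. Under other settings the remaining members stayed below 0 at week 4 but came nearer to it. Their values nearest to 0 were -0.25 (let-7a-5p), -0.050 (let-7b-5p), -0.084 (let-7c-5p), -0.70 (let-7d-5p), -0.092 (let-7e-5p), -0.060 (let-7f-5p) and -0.046 (let-7i-5p). At week 5, 7 of 8 were above 0, against 55.6%, and 5 of 8 had both 5/6Nx pools the higher, against 21.6%. Leaving out 1 library turned the week 5 direction of 4 members: let-7b-5p and miR-98-5p without sham pool B of week 5, let-7f-5p and let-7i-5p without sham pool A of week 5, and let-7b-5p and let-7f-5p without 5/6Nx pool A of week 5. Without sham pool A of week 5 the change of let-7a-5p was 0.07. At week 7, 7 of 8 were above 0, against 45.8%, but with upper-quartile scaling 8 of 8 were below 0, and in no member did the pools separate in either direction (27.1% of all miRNAs had both 5/6Nx pools the higher and 27.8% the lower).

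The median log2 change of the members was -0.20, -0.19, 0.20 and 0.11 at weeks 2, 4, 5 and 7, beside 0.03, -0.08, 0.05 and -0.04 for all 306 miRNAs. The summed level of the 8 members was 46059 ± 3438 CPM after 5/6Nx and 53634 ± 187 CPM after sham surgery at week 2 (SD, n = 2 each), and 34968 ± 382 CPM after 5/6Nx and 40810 ± 934 CPM after sham surgery at week 4. The 5/6Nx pools lay below the sham pools in both weeks. At week 5 the sums were 49220 ± 792 CPM after 5/6Nx and 42661 ± 10697 CPM after sham surgery, and at week 7 they were 36969 ± 1637 CPM after 5/6Nx and 34205 ± 4057 CPM after sham surgery. In these weeks the groups overlapped, and the SD of the week 5 sham pools was larger than the difference.

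**Figure D4:**
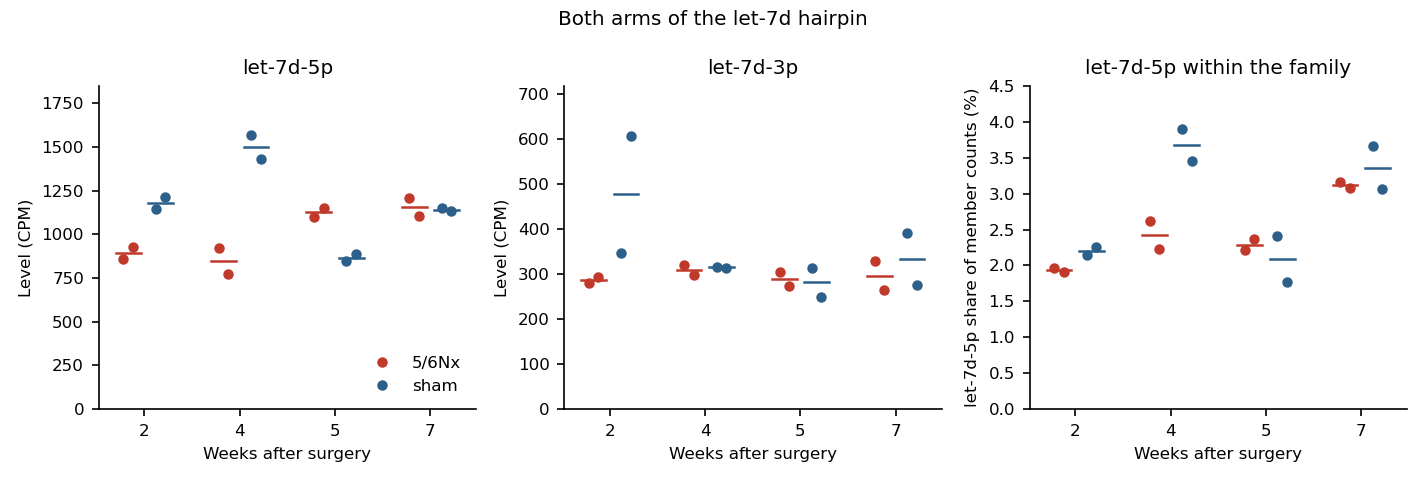
Level of let-7d-5p and of let-7d-3p (CPM, y axes of the left and middle panels) and the share of let-7d-5p in the members' counts (percent, right panel) by weeks after surgery (x axes); points are pools, lines group means, 5/6Nx left of sham. At week 4 the 5p arm was at 925 and 775 CPM after 5/6Nx, against 1569 and 1433 CPM after sham surgery, and the 3p arm at 320.3 and 297 CPM after 5/6Nx, against 317 and 314 CPM after sham surgery.

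The other arm of the let-7d hairpin is counted separately, and its pools overlapped at week 4; whether the arms differ in their change was not tested. let-7d-3p has the sequence given here to show how it differs from the 5p arm:
let-7d-3p: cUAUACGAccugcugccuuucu
Its seed, in capitals, differs from GAGGUAG. At week 4 let-7d-3p was at 320.3 and 297 CPM in the 5/6Nx pools, against 317 and 314 CPM in the sham pools (-0.03 ± 0.23, adjusted p = 0.978). The 4 pools overlapped. At week 2 it was at 281 and 294 CPM after 5/6Nx, against 347 and 606 CPM after sham surgery, with both 5/6Nx pools the lower (-0.73 ± 0.24, adjusted p = 0.102). The count ratio of let-7d-3p to let-7d-5p ranged from 0.202 to 0.499 over the 16 libraries.

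The 3p arms of the family, mostly the strand that is discarded when the hairpin is processed, were counted as 9 entries that passed the filter, 1 of which joins let-7a-1-3p and let-7c-2-3p. None passed in any week with edgeR or limma-voom. DESeq2 called 1, let-7d-3p at week 2, a week in which calls over all miRNAs moved with the setting. At an unadjusted p under 0.05 edgeR gave 1 at week 2, again let-7d-3p, and 0 at weeks 4, 5 and 7. At week 4, 6 of 9 were below 0, near the 61.1% of all miRNAs, and 0 of 9 had both 5/6Nx pools the lower, against 28.4% of all miRNAs. Their median log2 changes were -0.21, -0.05, 0.12 and -0.01 at weeks 2, 4, 5 and 7. After let-7d-3p the most abundant was the joint entry, at 143 CPM after 5/6Nx and 128 CPM after sham surgery at week 4 (0.16 ± 0.18, adjusted p = 0.893).

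Of the miRNAs encoded beside let-7 genes, the miR-99, miR-100 and miR-125 group, 10 of 11 listed entries were tested, and miR-100-3p was not. None passed in any week with edgeR, DESeq2 or limma-voom, and edgeR gave 0, 1, 0 and 1 of 10 at an unadjusted p under 0.05. At week 4, 7 of 10 were below 0 and 2 of 10 had both 5/6Nx pools the lower, shares near the 61.1% and 28.4% of all miRNAs. The entry under 0.05 in both of those weeks was miR-125b-1-3p, encoded on the chromosome of the second let-7a copy. At week 4 its mean was 84.1 CPM after 5/6Nx and 56.2 CPM after sham surgery (0.58 ± 0.24, adjusted p = 0.528). The most abundant, miR-99b-5p, averaged 4188 CPM after 5/6Nx and 5035 CPM after sham surgery at week 4, and its pools overlapped (-0.27 ± 0.40, adjusted p = 0.910).

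Entries annotated on the strand opposite to let-7 genes were used to check for shared reads. The RefSeq sequence of miR-3596b lies on the minus strand at chr17:16322275-16322294, inside the let-7d-5p interval, and all 20 of its bases are the reverse complement of let-7d-5p. The sequence of miR-3596a lies on the minus strand at chr8:50805219-50805240, over a let-7a-5p copy, and all 22 of its bases are the reverse complement of let-7a-5p. They are printed to show this relation, with bases 2 to 8 in capitals:
miR-3596b: aACUAUGCaaccuacuaccu
miR-3596a: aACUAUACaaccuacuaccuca

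**Figure D5:**
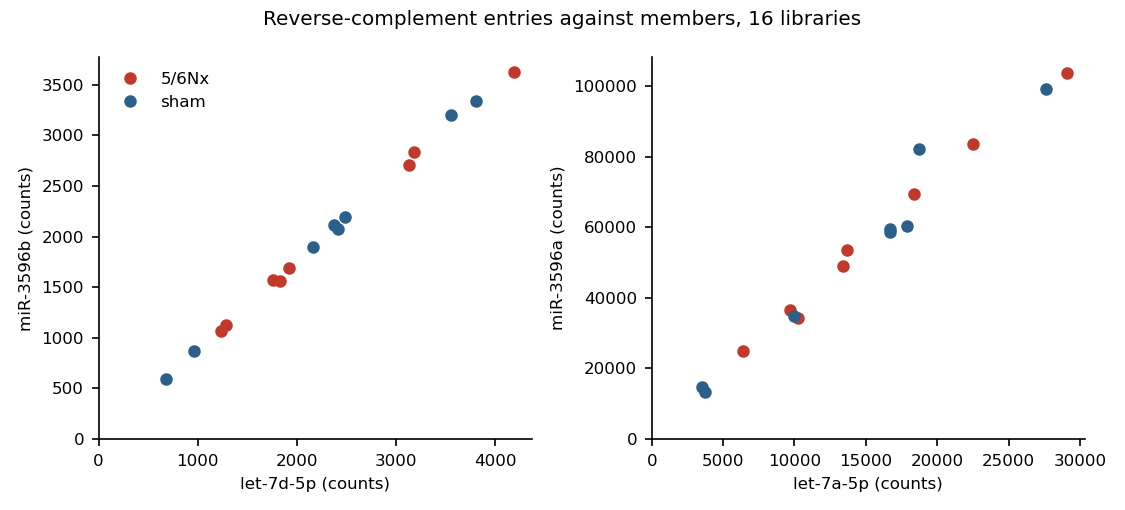
Counts of miR-3596b against let-7d-5p (left) and of miR-3596a against let-7a-5p (right) in the 16 libraries; each point is a library, 5/6Nx and sham by colour. The ratio of miR-3596b to let-7d-5p lay between 0.853 and 0.902 in all libraries.

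The counts of these entries followed those of the members. The ratio of miR-3596b to let-7d-5p counts lay between 0.853 and 0.902 in the 16 libraries, a range of 1.06-fold, while let-7d-5p itself ranged over 2.02-fold in CPM. The entry miR-3596a had 13275 to 103662 counts and 3.35 to 4.40 times those of let-7a-5p. Its counts stayed between 0.747 and 0.780 of the sum of the 7 members other than let-7i-5p, a set chosen after the values were seen. These 7 members match its reverse complement with at most 2 mismatches, and let-7i-5p with 4. By contrast miR-3596c, the reverse complement of let-7e-5p over 21 bases, had 0.283 to 0.397 of its counts, and miR-3596d, that of let-7f-5p over 20 bases, had 0.0275 to 0.0518.

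At week 4 miR-3596b was at 822 and 681 CPM after 5/6Nx, against 1396 and 1292 CPM after sham surgery (-0.84 ± 0.13, adjusted p = 0.00323). The pools were ordered as those of let-7d-5p and did not overlap. Its 5/6Nx effect also differed between weeks (adjusted p = 0.00764). In the authors' deposited table its adjusted p at week 4 was 0.0231. How reads that match more than 1 entry were counted is not given in the sources used here, and whether the 2 entries count the same reads was not tested, so they are not separate evidence. With miR-3596a to miR-3596d left out of the table, an alternative added after the data were seen, let-7d-5p at week 4 was at -0.73 (adjusted p = 0.0197).

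The rat let-7g-5p sequence is in the RefSeq tables but had no rat entry here. An entry of that name for other species had 9 to 120 counts, 0.177% to 0.354% of the let-7i-5p counts. It was not used as a member.

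Members differed in how closely they followed one another over the 16 libraries, given here as correlations of log2 CPM with no test, since libraries of a week share a table. let-7b-5p and let-7c-5p were at r = 0.94, let-7a-5p and let-7e-5p at 0.91 and let-7f-5p and let-7i-5p at 0.90. let-7d-5p stood apart, with r between -0.03 and 0.29 with the other 7 members. With the mean of each week removed, its r with them was 0.20 to 0.69, and it no longer stood apart. The lowest r among members was then -0.31, between let-7b-5p and miR-98-5p. Among 274 miRNAs outside the family, its 3p arms and the miR-3596 entries, the pattern of the summed family was most like that of miR-1839-5p (r = 0.81), miR-27a-5p (0.79), miR-150-5p (0.74), miR-181a-1-3p (0.74) and miR-1843-5p (0.72). With week means removed the closest were miR-423-3p (0.77), miR-30c-2-3p (0.76), miR-190b-5p (0.74), miR-532-5p (0.72) and miR-1839-5p (0.70). Before that step the r of miR-423-3p was 0.38, of miR-30c-2-3p 0.69, of miR-190b-5p 0.16 and of miR-532-5p 0.41. The lowest mean levels among the miRNAs named were those of miR-190b-5p, at 8.59 CPM, and miR-27a-5p, at 18.4 CPM.

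Summed levels of miRNAs listed for several cell types are given beside the let-7 differences. Some lists went the same way as the members and others did not. The 6 heart muscle miRNAs summed to 50272 to 60498 CPM after 5/6Nx, against 68133 to 68550 CPM after sham surgery, at week 4, and 5 of 6 were below 0 with none past the threshold. At week 2 they summed to 38062 to 45729 CPM after 5/6Nx, against 51541 to 65078 CPM after sham surgery, with 3 of 6 below 0. The 5 leukocyte miRNAs summed to 1589.8 to 1642 CPM after 5/6Nx, against 1808 to 2006 CPM after sham surgery, at week 4, with 4 of 5 below 0. At week 2 they summed to 2033 to 2568 CPM after 5/6Nx, against 2919.9 to 3465 CPM after sham surgery, with 1 of 5 below 0. Both sums were thus lower in the 5/6Nx pools in both weeks, although at week 2 no more than 3 of 6 and 1 of 5 of the single miRNAs were. The sum of the 3 fibroblast miRNAs was lower at week 2, at 2302 to 2412 CPM after 5/6Nx, against 2579 to 2595 CPM after sham surgery, with 1 of 3 below 0. It was also lower at week 4, at 2454 to 2551 CPM after 5/6Nx, against 2586 to 2727 CPM after sham surgery, with 2 of 3 below 0. At week 5 it was higher, at 2737 to 2911 CPM after 5/6Nx, against 2218 to 2293 CPM after sham surgery, with 1 of 3 below 0. Of the other lists, at week 4 the kidney and gut epithelium miRNAs were lower, at 1915 to 1961 CPM after 5/6Nx, against 2039.7 to 2190 CPM after sham surgery, and the erythrocyte, endothelial, smooth muscle and neural ones overlapped. At week 2 the erythrocyte miRNAs were higher, at 505 to 803 CPM after 5/6Nx, against 248 to 314 CPM after sham surgery. The endothelial, smooth muscle and epithelial sums were higher too, with 1 of 2, 0 of 2 and 0 of 3 below 0, and the neural one overlapped. In that week 1 smooth muscle miRNA passed the threshold, which 0.654% of all miRNAs passed. At week 5 the epithelium sum was lower, at 1854 to 1904 CPM after 5/6Nx, against 2166 to 2221 CPM after sham surgery. Apart from the fibroblast one, the other sums overlapped. At week 7 the heart muscle sum was lower, at 55295 to 57191 CPM after 5/6Nx, against 64173 to 69296 CPM after sham surgery. The leukocyte, epithelium and neural sums were lower too, the fibroblast sum was higher, and the others overlapped. Below 0 at week 7 were 5 of 6 heart muscle, 1 of 5 leukocyte, 1 of 3 epithelium, 1 of 1 neural and 0 of 3 fibroblast miRNAs. The heart muscle, leukocyte, neural and fibroblast lists each had 1 miRNA past the threshold, which 4.25% of all miRNAs passed. The share of reads that mapped was 70.1% and 79.0% after 5/6Nx, against 82.7% and 88.5% after sham surgery, at week 2. At week 4 it was 84.0% and 85.1% after 5/6Nx, against 81.9% and 87.6% after sham surgery. The part of these in the let-7 differences was not tested.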

How the data were processed

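Per the labels' protocols, left ventricle RNA was extracted with Trizol, and TruSeq small RNA libraries were sequenced on an Illumina HiSeq instrument. The deposited weekly tables hold raw read counts per library, per the file headers. Per the submitters' processing notes the tools included cutadapt, Bowtie and DESeq, with no version. Not given in the sources used here: genome build, annotation, counting tool, and how a read with several matches was counted. Near-identical members may therefore share reads. The authors also deposited p-values of their own tests and the percent of reads mapped per library, per the file headers.

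The 317 rat miRNAs in all 4 tables were analysed with edgeR 4.0.16 in R 4.3.3: TMM scaling, a minimum count of 10 (306 kept), a mean for each of 8 groups, and quasi-likelihood F tests with Benjamini-Hochberg adjustment over all 306. The common dispersion was 0.0271, and SE was the log2 change divided by the square root of F. Contrasts were the weekly differences, their mean, their difference between weeks, and the differences between weeks within each surgery. Alternatives were other scalings, filters and entry sets, DESeq2 1.42.0, limma-voom 3.58.1, a block by pool letter, single weeks and leaving out libraries.

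Members, lists (3p arms, cluster partners, cell markers) and the rule for similar miRNAs were chosen with earlier results of these data known. Pools are named A and B as in the count tables; that letters match the labels' replicate numbers is not stated. Nothing states that pools came from separate experiments, so p-values measure the spread between pools. Depth was 672077 to 3509916 counts on rat miRNAs per library.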

Additional observations from a re-analysis of the deposited data

Results flagged for a closer look

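The 5/6Nx effect on let-7d-5p differed between the 4 weeks by the test of the difference itself (adjusted p = 0.00764): its log2 change was -0.40, -0.82, 0.38 and 0.02 at weeks 2, 4, 5 and 7. The entry on the opposite strand, miR-3596b, differed likewise (adjusted p = 0.00764), with log2 changes of -0.40, -0.84, 0.36 and -0.01. Whether both count the same reads was not tested.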

How the results depend on the processing

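Over 30 other settings, 944 weekly changes of members were refitted: 894 kept their direction and side of the threshold, 41 changed sign, 2 lost and 7 gained the threshold, and 19 of the 32 weekly values never changed sign. let-7d-5p at week 4 was lost only in 2 of the fits without 1 library. With upper-quartile scaling, which moved the median of all miRNAs at week 7 to -0.29, the week 7 changes became -0.018 (let-7a-5p), -0.16 (let-7b-5p), -0.083 (let-7c-5p), -0.23 (let-7d-5p), -0.032 (let-7e-5p), -0.13 (let-7f-5p) and -0.17 (miR-98-5p). That of let-7d-5p was also -0.026 when library sizes left out the 5 most abundant miRNAs and -0.050 when they left out the let-7 family. That of let-7i-5p, -0.0047 as reported, became 0.037 with relative log expression (RLE) size factors, 0.035 with all listed entries, 0.037 in DESeq2, 0.042 in week 7 alone, 0.060 without a filter, 0.049 at a minimum count of 50, 0.075 without miR-3596a to miR-3596d and 0.00098 without the week 5 libraries. miR-98-5p at week 4 became 0.0089 when library sizes left out the let-7 family and 0.0012 with all listed entries.

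Without 1 library at a time, sign changes fell at week 5 in let-7b-5p (-0.16 to 0.16), let-7f-5p (-0.36 to 0.60), let-7i-5p (-0.096 to 0.30) and miR-98-5p (-0.47 to 0.14), at week 4 in miR-98-5p (-0.12 to 0.011), and at week 7 in let-7a-5p (-0.034 to 0.57), let-7d-5p (-0.025 to 0.18), let-7e-5p (-0.045 to 0.54), let-7f-5p (-0.0058 to 0.28), let-7i-5p (-0.017 to 0.088) and miR-98-5p (-0.074 to 0.25).

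The number of members called at week 2 was 1 with DESeq2 and without the week 5 libraries, and 0 to 3 without 1 library; at week 4 it was 0 to 1, at week 5 0 to 1, in the mean of weeks 1 with DESeq2 and 0 to 1 without 1 library, and in the difference between weeks 0 to 3. Between sham weeks it was 3 with upper-quartile scaling, both reduced library sizes, a minimum count of 50 and all entries, and 3 to 7 without 1 library; between 5/6Nx weeks it was 2 without a filter, with all entries and without miR-3596a to miR-3596d, and 1 to 5 without 1 library. The number of all miRNAs called moved more: against 2, 2, 0 and 13 at weeks 2, 4, 5 and 7, other settings gave 0 to 48, 1 to 16, 0 to 6 and 13 to 41, and leaving out 1 library 0 to 56, 0 to 4, 0 to 63 and 5 to 49. Against 17 in the mean of weeks and 5 in the difference between weeks, they gave 12 to 29 and 3 to 27, and 8 to 68 and 1 to 75.

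With a replicate block by pool letter the numbers of members called were 1 at week 4, 0 at weeks 2, 5 and 7, 1 in the difference between weeks and 4 in each comparison between weeks. Same-letter pools showed no clear shared deviation (correlations 0.098, -0.091, 0.018 and -0.18 in the 4 weeks). With 2 pools a group, these values cannot exclude that pools were paired by letter. Leaving out the miR-3596 entries, week 5 or week 7 was chosen after seeing the data. Where a fit without 1 library leaves 1 pool in a group, that pool is assumed to vary like the other groups. With 2 pools a group, and 235 counts at the lowest, the spread between pools limits these values more than counting does. The cause of the changes was not tested.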
